A study of Mus musculus with 2 samples.

Results

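A list of 38 mouse genes that encode antioxidant enzymes, or that are linked to the transcription factor NRF2, was followed in control and DAC-treated CT26 cells. The genes were taken by symbol and matched to the Ensembl gene identifiers of the count tables through GENCODE mouse release M21. Of the 38 symbols, 37 were among the 24223 genes of the tables, and 35 reached the minimum level set below. The expression of Gpx3, the secreted glutathione peroxidase, was not analysed here, as its identifier was not among those in the tables used, and only its promoter window enters below. CT26 is a mouse colorectal cancer (CRC) cell line, and DAC stands for decitabine, a drug built into DNA as a cytosine look-alike, where it binds DNA methyltransferases so that newly made DNA loses methylation. The DAC-treated cells received fresh medium with 1 μM DAC 3 times, 24 h apart, and were then kept for 24 h without the drug. The control cells were handled in parallel without DAC. Each group was 1 RNA-seq library of poly-A RNA from 1 culture as far as the labels show (n = 1 per group), so no difference given here has a replicate check.

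Cells make superoxide and hydrogen peroxide during respiration, and superoxide dismutases, catalase, glutathione peroxidases and peroxiredoxins remove them in turn. The peroxidases are recharged by glutathione and thioredoxin, which are themselves reduced with NADPH from the pentose phosphate pathway, malic enzyme and other sources. NRF2, encoded by Nfe2l2, binds antioxidant response elements and drives many of these genes, while KEAP1 holds NRF2 in the cytoplasm and hands it to the proteasome until oxidants or electrophiles modify KEAP1. Much of NRF2 regulation is therefore at the protein level, which RNA counts do not measure.

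The deposited counts summed to 34221886 in the control library and 35163420 in the DAC library, and 3506 and 1570 genes, respectively, were at 0. Counts were scaled with edgeR's TMM factors and expressed as CPM (counts per 1000000, after scaling), so that 1 CPM stood for 32 counts in the control library and 37.6 in the DAC library. To be called higher or lower after DAC, a gene needed 1 CPM or more in either library, a DAC over control ratio of 2 or more (0.5 or less), and a 95% interval of that ratio, from exact Clopper-Pearson limits, that did not cross 1. These intervals follow in parentheses and cover counting error only, and PCR reads without molecular identifiers are not independent molecules. Mitochondrial genes held 4.91% of control and 4.68% of DAC counts. Of 8 epithelial markers, 7 were in the tables, and Krt18 was well counted in both libraries, with 1797 counts without and 3579 with DAC. The other 6 were low or at 0 without DAC, with 5 counts of Krt8, 12 of Krt19, 4 of Cdx2 and none of Cdh1, Cldn4 or Vil1. With DAC, Krt8 had 4445 counts, Krt19 58, Cdx2 22, Cdh1 and Cldn4 9 each and Vil1 12, and the list summed to 56.8 CPM without and 216.5 CPM with DAC. The 6 mesenchymal markers summed to 2923 and 2424 CPM, and none was called. Ratios were 1.15 (1.13 to 1.17) for Vim, 1.21 (1.14 to 1.29) for Pdgfrb and 1.56 (1.14 to 2.15) for Dcn. Col1a1 was at 0.974 (0.926 to 1.03) and Col1a2 at 0.589 (0.582 to 0.597), and Thy1 had 2 and 0 counts. The lower sum came from Col1a2, which went from 1651 to 973 CPM. Whether this marker difference has a part in the results below was not tested. In bulk RNA, a difference in the number of cells that express a gene and a difference in RNA per cell cannot be told apart.

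The DAC library had 5 of the 35 genes past the minimum called higher (Nqo1, Gsr, Pgd, Taldo1 and Srxn1) and 3 called lower (Txnip, Gpx1 and Prdx5), and 27 were neither. These counts were 14.3% and 8.57% of the 35, against 10.8% higher and 5.29% lower among all 13545 genes past the minimum. With library totals in place of TMM factors, which added 0.19 to every log2 ratio, the shares over all genes were 13.9% and 3.37%. The counts for the list as a whole were close to these backgrounds and are not a result about the list. Its median log2 ratio was 0.11, against -0.02 for all genes past the minimum. With TMM factors, the counting interval lay above 1 for 20 of the 35 genes, lay below 1 for 11 and held 1 for 4, which were Prdx3, Glrx, Sod2 and Me1. The same counts were not made over all genes, so these numbers are not a result about the list either. With library totals, the ratios of at least 32 of the 37 genes in the tables fell outside their TMM counting interval. Gpx4, Prdx3 and Glrx had ratios below 1 with TMM factors and above 1 with library totals. The value nearest to the threshold on the inside was the log2 ratio of -1.01 of Prdx5. On the outside, Gpx8 at -0.72 and Sod1 at 0.64 were nearest.

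**Figure D1:**
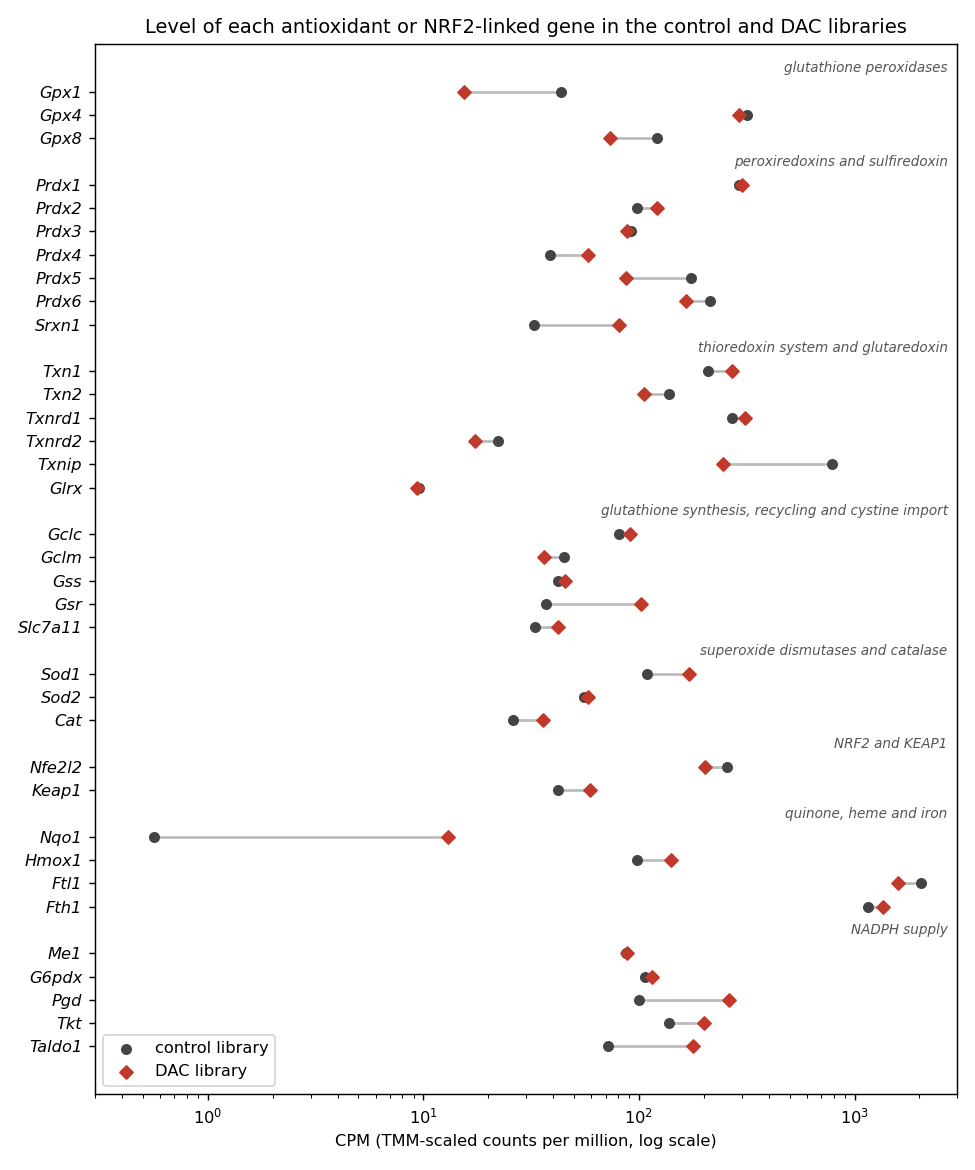
Level of the 35 genes past the minimum in the control library (grey circles) and the DAC library (red diamonds), in CPM on a log axis, grouped by role, with 1 library a group. Nqo1 has the longest span, from 0.562 to 13.1 CPM, and Txnip the longest in the other direction, from 789 to 244 CPM.

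The listed genes were divided by what is known of their regulation, with earlier results of these data in view. This division is 1 choice of list, and the contrast below depends on it. Some genes placed outside the targets, such as Prdx6 and Nfe2l2, may also be NRF2 targets. The 17 known NRF2 targets held all 5 genes called higher (29.4%, against 10.8% of all genes) and none called lower (against 5.29%). Their median log2 ratio was 0.35, with 15 ratios above 1 and 2 below (Ftl1 and Gclm). Over all 13545 genes past the minimum, 6595 ratios were above 1 and 6950 below. Nqo1, among the 5 genes called higher, was below the minimum without DAC and could be called higher only. Among the other 18 listed genes past the minimum, none was called higher and 3 were called lower (16.7%). Their median log2 ratio was -0.09 with TMM factors and 0.10 with library totals, where the median of all genes was 0.18. The difference between the NRF2 targets and the other genes was not tested, because genes are not replicates.

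**Figure D2:**
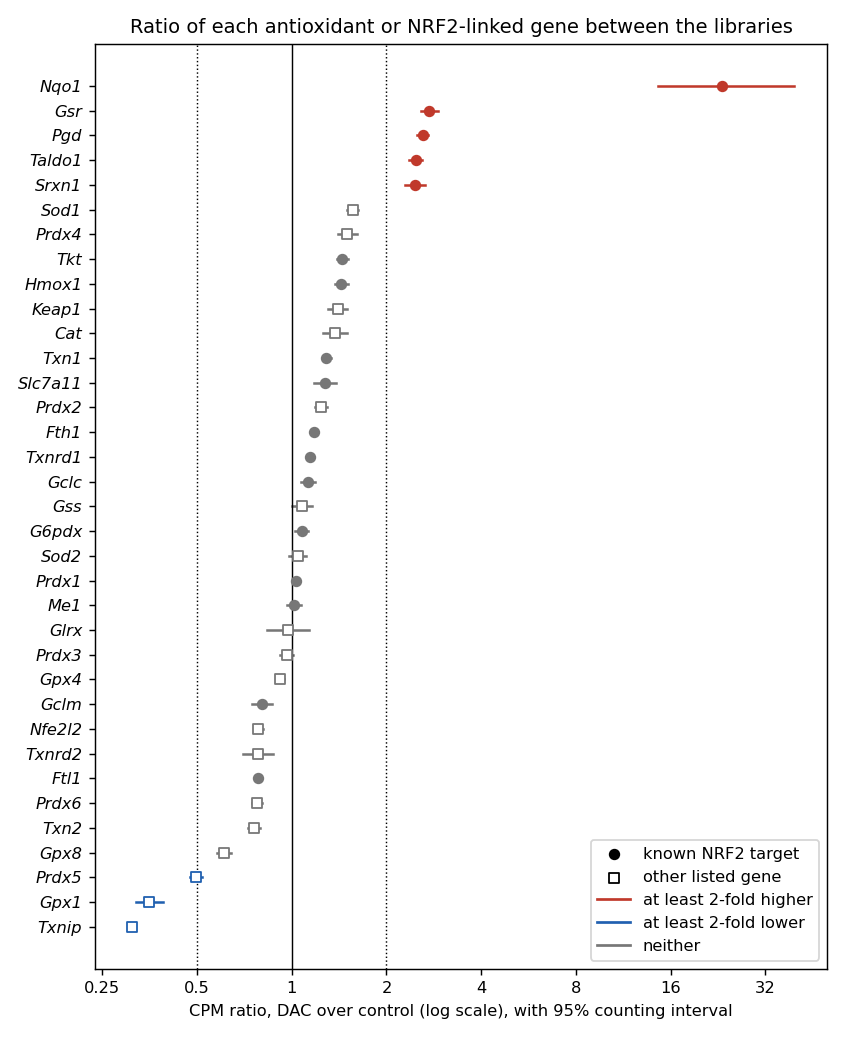
Ratio of DAC over control CPM for each of the 35 genes, on a log axis, with 95% counting intervals as bars. Filled circles are the 17 known NRF2 targets and open squares the other genes, red and blue mark genes called higher and lower, and dotted lines mark 2-fold. All 5 red points are circles and all 3 blue points are squares.

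**Figure D3:**
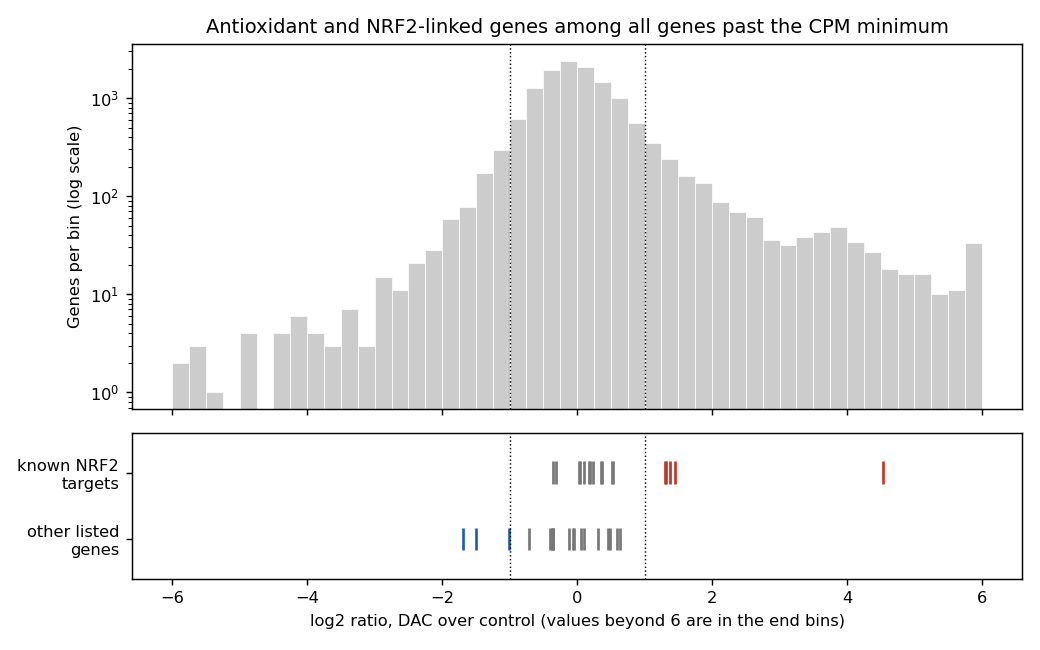
Upper panel, number of genes per bin of log2 ratio over the 13545 genes past the minimum, on a log axis. Lower panel, each listed gene as a tick, coloured by its call, with the NRF2 targets above the other listed genes. Nqo1 stands at 4.54, past 99.3% of all genes, while the 4 other genes called higher lie between 1.3 and 1.45.

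The regulators themselves were called neither higher nor lower. Nfe2l2, which encodes NRF2, went from 8239 counts without DAC to 7568 with it, at a CPM ratio of 0.783 (0.759 to 0.808). Keap1, its inhibitor, went from 1354 to 2222 counts, at a ratio of 1.4 (1.31 to 1.5). The NRF2 transcript was thus a little less abundant and that of its inhibitor a little more abundant in the DAC library. A part of the Keap1 exons, 10.9%, overlaps the antisense gene Gm16754, which had 91 counts without and 82 with DAC. In per-length units, Nfe2l2 was more abundant than Keap1 in both libraries, at 67.8 against 9.01 CPM per kb of exons in the control and 53.1 against 12.6 in the DAC library.

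A wider list of 13 NRF2 partners and regulators, of which 11 passed the minimum, had none called higher and 2 called lower (18.2%, against 5.29% of all genes). Nfe2l1, which encodes the related factor NRF1 that drives proteasome genes, went from 11823 counts without DAC to 2653 with it and was 5.23-fold lower (5.01 to 5.46). Bach2, a repressor that competes for the same DNA elements, had 62 counts without and 26 with DAC and was 2.80-fold lower (1.74 to 4.61). Sqstm1, which encodes p62, a carrier that can draw KEAP1 into autophagy, was the most counted of the list, with 26518 and 42224 counts and a ratio of 1.36 (1.34 to 1.38). Bach2 passed the minimum only through the control library.

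Nqo1, the quinone reductase long used as a readout of NRF2, differed most between the libraries. It had 18 counts without and 491 with DAC, or 0.562 and 13.1 CPM, a ratio of 23.3 (14.6 to 39.6). The control level was below the minimum, so Nqo1 passed through the DAC library alone and could be called in 1 direction only. Even after DAC its level of 8.41 CPM per kb was among the lower ones of the list. The gene lies on the minus strand of chromosome 8 from 107388225 to 107403206 (GRCm38), and no 50-base stretch of its longest transcript is found in another gene. The nearest expressed gene on one side is Nfat5, a transcription factor of osmotic stress, at 8.71 kb, with 3158 control and 8871 DAC counts and a ratio of 2.39 (2.30 to 2.49). On the other side is Nob1, a ribosome assembly factor, at 9.28 kb, with 3471 and 3265 counts and a ratio of 0.802 (0.764 to 0.841). One flanking gene was therefore called higher together with Nqo1 and the other was not.

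DAC lowers methylation at CpG sites, and the DNA just before the start of Nqo1 is shown for that reason beside that of Srxn1 and Taldo1, which were also called higher. The sequences are from RefSeq on GRCm38.p6, 5′ to 3′ on the strand of the gene, from 250 to 11 bases before the start site, and capitals mark CpG sites. They span chr8:107403216-107403455 (minus strand) for Nqo1, chr2:152105274-152105513 (plus strand) for Srxn1 and chr7:141391910-141392149 (plus strand) for Taldo1, and none of these bases lies in an annotated exon.
Nqo1: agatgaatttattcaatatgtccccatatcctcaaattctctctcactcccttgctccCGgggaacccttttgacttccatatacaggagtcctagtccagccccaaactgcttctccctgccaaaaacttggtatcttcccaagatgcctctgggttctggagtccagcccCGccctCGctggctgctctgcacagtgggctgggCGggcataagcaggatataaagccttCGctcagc
Srxn1: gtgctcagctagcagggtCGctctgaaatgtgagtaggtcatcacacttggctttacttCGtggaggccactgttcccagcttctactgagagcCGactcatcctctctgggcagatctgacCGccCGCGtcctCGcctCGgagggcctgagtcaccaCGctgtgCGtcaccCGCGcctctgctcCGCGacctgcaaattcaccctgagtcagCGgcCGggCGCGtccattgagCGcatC
Taldo1: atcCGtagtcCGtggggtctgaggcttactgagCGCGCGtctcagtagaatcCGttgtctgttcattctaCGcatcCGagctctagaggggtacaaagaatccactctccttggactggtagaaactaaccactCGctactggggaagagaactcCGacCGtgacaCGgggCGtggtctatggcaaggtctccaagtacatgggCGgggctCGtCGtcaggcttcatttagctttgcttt
These stretches hold 5 CpG sites in Nqo1, 19 in Srxn1 and 16 in Taldo1. CpG sites are thus sparser before Nqo1 than before the other pair, so the 3 promoters differ in how many sites could carry methylation. The 3 are a choice among the genes called higher. Pgd, also called higher, has 2 windows, with 8 and 18 sites over the same span, and no window was found for Gsr. Methylation was not measured in the files used here.

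Promoter windows of 300 bases, from 250 before to 50 after the start, were found for 33 of the 38 genes, as 42 windows. Their median was 19 CpG sites, against 7 over all 32851 windows of the table, and their median observed over expected CpG was 0.696 against 0.384. The Nqo1 window, with 5 sites and an observed over expected value of 0.249, was below both medians. Windows of genes called lower had 24 sites in Txnip, 22 in Prdx5 and 11 in Gpx1. Besides Nqo1, windows of genes called higher had 26 in Srxn1, 22 in Taldo1, and 9 and 23 in the 2 windows of Pgd. No window was found for Gsr. Whether the number of sites goes with the call was not tested. Fixed letters were searched on both strands, and a match is a description and not a binding site. TGACNNNGC, a core of the antioxidant response element, was present in windows of 9 of the 33 genes (G6pdx, Gclm, Me1, Nfe2l2, Pgd, Prdx1, Sod1, Srxn1 and Txnrd1), 9 of the 42 windows, against 12.4% of all windows. TGACTCA, the AP-1 motif that overlaps it in Me1 and Prdx1, was present in Glrx, Me1, Prdx1 and Srxn1. These were 5 of the 42 windows, against 5.2% of all windows. In Srxn1 the reverse complement of this AP-1 motif, TGAGTCA, stands 102 and 45 bases before the start, inside the stretch printed above. No match to TGACNNNGC was found in the windows of Nqo1 and Taldo1, which says only that these letters are not in this stretch. The Nqo1 window holds TATAAA, the TATA box, 29 bases before the start, a motif found in 13.6% of all windows. GGGCGG, the GC box, was present in 32 of the 42 windows (30 of the 33 genes), against 35.7% of all windows. CCAAT was present in 18 of the 42 windows (16 genes), against 37.4% of all windows. The median GC content was 60.7% in the windows of the listed genes and 52.7% in all windows. CACGTG, an E-box, was found in Prdx4 alone among the listed genes and in 7.15% of all windows.

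The other genes of quinone, heme and iron handling were called neither higher nor lower. Hmox1, the heme oxygenase that opens the heme ring and frees its iron, went from 3124 counts without DAC to 5272 with it, at a CPM ratio of 1.44 (1.38 to 1.5). Fth1, the ferritin heavy chain that oxidises iron for storage, went from 36780 to 50747 counts, at a ratio of 1.18 (1.16 to 1.19). Ftl1, the light chain, went from 65310 to 59664 counts, at a ratio of 0.779 (0.770 to 0.787). The ferritin chains thus stood on opposite sides of 1, and the ratio of Ftl1 to Fth1 counts went from 1.78 in the control to 1.18 in the DAC library, 0.662 of its control value (0.651 to 0.674, normal interval on the log scale). Per kb, Ftl1 made up 82.1% of ferritin transcripts without and 75.3% with DAC. The Ftl1 value is uncertain, because 90.6% of its 50-base stretches occur in 17 other genes, which held 14731 and 15665 counts.

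Of 11 further NRF2 targets past the minimum, 3 were called higher and none lower, with a median log2 ratio of 0.57. Their ratios were above 1 for 7 genes and below 1 for 4, against 6595 above and 6950 below over all genes past the minimum. The whole list summed to 1286 CPM without and 1076 CPM with DAC. Aldh3a1, an aldehyde dehydrogenase, went from 109 counts without DAC to 414 with it, at a CPM ratio of 3.24 (2.62 to 4.04). Osgin1, an oxidative stress-induced growth inhibitor, went from 109 to 327 counts, at a ratio of 2.56 (2.05 to 3.21). Ptgr1 was the third gene called. Ugdh, an enzyme of glucuronic acid supply and the most counted of the list, went from 14027 to 12906 counts, at a ratio of 0.784 (0.766 to 0.803). The share called higher was 27.3%, beside 29.4% of the 17 listed NRF2 targets and 10.8% of all genes. Both lists were chosen with earlier results of these data known, and the difference was not tested. Of 11 genes of iron and heme handling, 2 were called higher (18.2%, against 10.8% of all genes) and none lower. These were Steap3, a ferrireductase of endosomes, with 18 and 109 counts (ratio 5.16, 3.12 to 9.03), and Tfrc, the transferrin receptor, with 1160 and 2784 counts (ratio 2.05, 1.91 to 2.19). Pcbp1, an iron chaperone and the most counted of these, went from 9359 to 15221 counts, at a ratio of 1.39 (1.35 to 1.42). Steap3 was below the minimum without DAC, so it could be called in 1 direction only.

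Glutathione is built stepwise from cysteine and kept reduced by glutathione reductase. Of these genes, the reductase differed most. Gsr, the reductase, went from 1192 counts without DAC to 3832 with it, at a CPM ratio of 2.74 (2.57 to 2.93), from 37.2 to 102 CPM. Gss, which completes glutathione, went from 1349 to 1706 counts, at a ratio of 1.08 (1.003 to 1.16). Some Gss exon sequence, 6.68%, overlaps Acss2 on the opposite strand, which had 184 counts without and 630 with DAC. The Gsr to Gss count ratio was 0.884 without and 2.25 with DAC, 2.54 times higher (2.31 to 2.80). The 4 nearest expressed genes around Gsr on chromosome 8 were called neither way, with ratios from 0.657 (Ppp2cb) to 1.37 (Rbpms).

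Glutamate-cysteine ligase makes the first bond of glutathione with a catalytic subunit, Gclc, and a modifier subunit, Gclm, and both are known NRF2 targets. Gclc went from 2584 counts without DAC to 3420 with it, at a CPM ratio of 1.13 (1.07 to 1.19). Gclm went from 1436 to 1356 counts, at a ratio of 0.805 (0.747 to 0.867). The subunits lay on opposite sides of 1 with TMM factors, and Gclm per Gclc was 0.714 of its control value (0.652 to 0.781), a relation that no scaling of the libraries alters. Some Gclm exon sequence, 4.71%, overlaps Gm17494 on the opposite strand, which had 405 counts without and 991 with DAC. Slc7a11, the cystine carrier of system xc-, went from 1056 to 1580 counts, at a ratio of 1.28 (1.18 to 1.38). In glutathione turnover and thiol supply, 2 of 12 genes were called higher (16.7%, against 10.8% of all genes) and none lower. Ggt7, a gamma-glutamyltransferase family gene, had 12 counts without and 122 with DAC (ratio 8.66, 4.78 to 17.2), and Anpep, an aminopeptidase that can cleave cysteinylglycine, had 326 and 1326 (ratio 3.47, 3.07 to 3.93). Ggt7 passed the minimum through the DAC library alone. Slc3a2, the heavy chain that partners Slc7a11 and the most counted of that list, went from 11470 to 15978 counts, at a ratio of 1.19 (1.16 to 1.22).

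The glutathione peroxidases, which reduce peroxides at the cost of glutathione, had 3 genes past the minimum, with 1 called lower and a median log2 ratio of -0.72. Gpx1, the broadly expressed cytosolic selenoprotein, went from 1394 counts without DAC to 577 with it, from 43.5 to 15.4 CPM, and was 2.84-fold lower (2.57 to 3.13). Gpx1 is among the genes that the study chose to show as lower on these same samples, so its direction is not independent evidence. Gpx4, which reduces lipid peroxides and guards against ferroptosis, went from 10107 to 10889 counts, at a ratio of 0.918 (0.894 to 0.943). Gpx8, a membrane protein of the endoplasmic reticulum, went from 3868 to 2761 counts, at a ratio of 0.608 (0.579 to 0.639), and was outside the 2-fold rule. Gpx7, its relative in the same compartment, had 3 counts without and 0 with DAC, at or below the floor of 3 counts, so no fold is given.

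The make-up of the family differed between the libraries. Per kb of exons, Gpx1 was 9.19% of glutathione peroxidase transcripts without and 4.28% with DAC, Gpx4 55.7% and 67.5%, and Gpx8 35.1% and 28.2%. As a share of the family's counts, Gpx1 was 9.07% (8.62% to 9.53%, exact interval) of 15372 in the control and 4.06% (3.74% to 4.39%) of 14227 in the DAC library. The Gpx1 to Gpx4 count ratio in the DAC library was 0.384 of its control value (0.347 to 0.425). Gpx4 shares 61.7% of its 50-base stretches with other genes, among them a processed pseudogene, and the related genes in the tables held 751 and 890 counts. Gpx1 shares none. It lies on the plus strand of chromosome 9 from 108338903 to 108340343, 0.969 kb from Rhoa, which encodes a small GTPase and had 13791 counts without and 13019 with DAC (ratio 0.805, 0.785 to 0.824).

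Gpx1 and Gpx4 encode selenoproteins, as do Txnrd1 and Txnrd2. On a list of other selenoprotein genes, 13 passed the minimum, of which 1 was called higher (7.69%, against 10.8% of all genes) and none lower. Msrb1, a methionine sulfoxide reductase, went from 215 counts without DAC to 667 with it, at a CPM ratio of 2.64 (2.26 to 3.10). Selenof, a protein of the endoplasmic reticulum and the most counted of these, went from 14389 to 14715 counts, at a ratio of 0.872 (0.852 to 0.892). The median log2 ratio of the 13 genes was -0.20 with TMM factors, about the size of the shift that library totals make. Of 9 genes of the selenocysteine machinery, 1 was called higher (11.1%) and none lower. That gene was Lrp8, a receptor that takes up selenoprotein P, with 373 and 897 counts (ratio 2.05, 1.81 to 2.32), while Secisbp2l, a relative of the SECIS-binding protein and the most counted of the list, had 3217 and 2818 (ratio 0.747, 0.709 to 0.786). Gpx1 was therefore the only one of these selenoprotein genes called lower.

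Peroxiredoxins reduce hydrogen peroxide with a reactive cysteine, and sulfiredoxin, encoded by Srxn1, restores that cysteine when it is overoxidised. Srxn1 went from 1046 counts without DAC to 3022 with it, from 32.7 to 80.4 CPM, a ratio of 2.46 (2.29 to 2.64). Its substrate gene Prdx1 went from 9304 to 11286 counts, at a ratio of 1.03 (1.01 to 1.06), so Srxn1 per Prdx1 was 2.38 times its control value (2.21 to 2.57). Srxn1 lies on chromosome 2 from 152105516 to 152111376, and its 4 nearest expressed genes, all 73.9 kb or more away, had ratios from 0.731 (Csnk2a1) to 1.44 (Fam110a), none of them called.

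Prdx5, the peroxiredoxin of mitochondria, peroxisomes and cytosol, was the only one of the 6 peroxiredoxins called. It went from 5609 counts without DAC to 3258 with it and was 2.02-fold lower (1.93 to 2.11). The call stood close to the threshold and was lost with library totals (log2 ratio -0.82) and with DESeq2 size factors (-0.99). Of its exons, 19.1% overlap Trmt112 on the opposite strand, a gene with 915 and 1404 counts and so with more counts in the DAC library. Prdx4, the secretory pathway member, went from 1236 to 2180 counts, at a ratio of 1.5 (1.4 to 1.61), and Prdx2, a cytosolic member, went from 3147 to 4571, at a ratio of 1.24 (1.18 to 1.3). Prdx2 shares 23.8% of its 50-base stretches with other genes, its overlap partners Junb and Rnaseh2a among them. Prdx3, the other mitochondrial member, went from 2939 to 3318 counts, at a ratio of 0.962 (0.915 to 1.01), and Prdx6, which uses glutathione, went from 6824 to 6211, at a ratio of 0.776 (0.749 to 0.803). The peroxiredoxins found in mitochondria thus differed, with Prdx5 per Prdx3 at 0.515 of its control value (0.482 to 0.550). Per kb, Prdx5 was 24.5% of peroxiredoxin transcripts without and 13.5% with DAC, while Prdx1 was 28.6% and 32.8%, Prdx4 5.48% and 9.16% and Prdx2 9.64% and 13.3%.

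**Figure D4:**
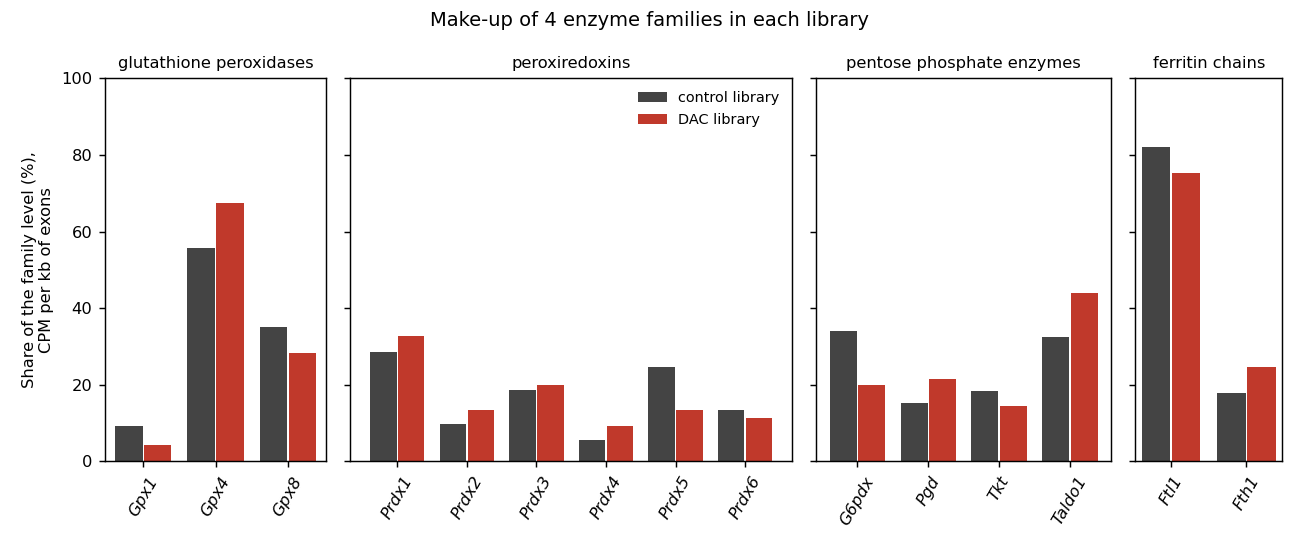
Make-up of 4 enzyme families in each library, as the share of each gene in the family's summed CPM per kb of exons, with 1 library a group and no error bars. Gpx1 goes from 9.19% to 4.28%, Prdx5 from 24.5% to 13.5%, G6pdx from 33.9% to 19.9% and Taldo1 from 32.5% to 44.0%.

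Thioredoxin carries electrons from NADPH, through thioredoxin reductase, to the peroxiredoxins, and TXNIP binds and inhibits it. Txnip was the most lowered gene of the list by ratio, with 25274 control and 9179 DAC counts, from 789 to 244 CPM, 3.23-fold lower (3.16 to 3.31). It was also abundant, at 253 CPM per kb in the control, below Ftl1 and Fth1 alone among the listed genes, and at 78.2 in the DAC library. Its log2 ratio of -1.69 was below those of all but 1.34% of genes past the minimum. Txnip lies on chromosome 3 from 96557957 to 96561883, and 19.4% of its exon sequence overlaps the antisense gene Gm15441, which had 17 counts without and 26 with DAC. Polr3gl, a subunit of an RNA polymerase III form at 16 kb, went from 581 to 400 counts, at a ratio of 0.587 (0.515 to 0.668), and was not called.

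The thioredoxins and their reductases split by compartment, although none was called. Txn1, the cytosolic thioredoxin, went from 6682 counts without DAC to 10099 with it, at a CPM ratio of 1.29 (1.25 to 1.33), and Txnrd1, its reductase, went from 8671 to 11628, at a ratio of 1.14 (1.11 to 1.18). The mitochondrial Txn2 went from 4425 to 3944 counts, at a ratio of 0.760 (0.728 to 0.793), and its reductase Txnrd2 went from 711 to 651, at a ratio of 0.780 (0.701 to 0.869). Both cytosolic genes were above 1 and both mitochondrial genes below 1, with TMM factors and with library totals. Txn1 and Txnrd1 are also known NRF2 targets, while Txn2 and Txnrd2 were placed outside them. Compartment and NRF2 target status therefore cannot be told apart in these genes. Glrx, a glutaredoxin, went from 307 to 350 counts, at a ratio of 0.972 (0.831 to 1.14). The Txnip to Txn1 count ratio went from 3.78 in the control to 0.909 in the DAC library, 0.240 of its control value (0.231 to 0.25), and the order of their levels per kb was reversed. Without DAC they stood at 253 CPM per kb for Txnip and 198.5 for Txn1, and with DAC at 78.2 and 256.

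TXNIP is an alpha-arrestin, and its gene is known to be driven by MLX factors that sense glucose. Of 6 genes on a list of other alpha-arrestins and MLX factors, 1 was called higher and 1 lower (16.7% each, against 10.8% and 5.29% of all genes). Arrdc3, an alpha-arrestin related to TXNIP and the most counted of the list, went from 3964 counts without DAC to 1588 with it and was 2.93-fold lower (2.76 to 3.11). Mlxipl, which encodes the glucose-responsive factor ChREBP, went from 18 to 57 counts, at a ratio of 2.70 (1.57 to 4.87), and passed the minimum through the DAC library alone. Of 17 other thiol enzymes and metallothioneins, 1 was called higher and 1 lower (5.88% each). Nxn, nucleoredoxin, had 375 counts without and 1011 with DAC (ratio 2.30, 2.04 to 2.59), and Txndc12, a thioredoxin-fold protein of the endoplasmic reticulum, had 1917 and 1109 (2.03-fold lower, 1.88 to 2.19). Mt2, a metal-binding metallothionein and the most counted of these, went from 4299 to 8670 counts, at a ratio of 1.72 (1.66 to 1.78).

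The superoxide dismutases and catalase had 3 genes past the minimum, all with ratios above 1 and none called. Sod1, the cytosolic copper and zinc enzyme, went from 3506 counts without DAC to 6426 with it, at a CPM ratio of 1.56 (1.5 to 1.63). Sod2, the mitochondrial manganese enzyme, went from 1786 to 2186 counts, at a ratio of 1.04 (0.979 to 1.11), so that Sod1 per Sod2 was 1.5 times its control value (1.39 to 1.61). Cat, the peroxisomal catalase, went from 836 to 1347 counts, at a ratio of 1.37 (1.26 to 1.5). Sod3, the extracellular enzyme, had 7 counts without and 0 with DAC, below the minimum in both. Against the floor of 3 counts in the DAC library it was 2.74-fold lower, with an interval limit of 1.69. With TMM factors, Sod1 and Cat thus had ratios above 1 beyond counting error, while the interval of Sod2 held 1. Library totals added 0.19 to every log2 ratio, which would put the Sod2 interval above 1 too.

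NADPH pays for these reductions, and the pentose phosphate pathway is a main source. Its 4 genes on the list together went from 13371 counts without DAC to 28393 with it, and their summed level per kb was 1.83 times the control value. Pgd, which encodes the second NADPH-making enzyme of the pathway, had 3214 counts without and 9824 with DAC, from 100.4 to 261 CPM, a ratio of 2.61 (2.5 to 2.71). Taldo1, transaldolase of the non-oxidative branch, had 2311 counts without and 6727 with DAC, from 72.2 to 179 CPM, a ratio of 2.48 (2.37 to 2.60). Both were called higher, and both are known NRF2 targets, as are G6pdx, Tkt and Me1. Taldo1 shares 10.9% of its 50-base stretches with 1 other gene.

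The partner enzymes of the same branches differed less. G6pdx, the X-linked dehydrogenase that makes the first NADPH and commits glucose to the pathway, went from 3417 to 4310 counts, at a ratio of 1.08 (1.03 to 1.13). Tkt, transketolase, went from 4429 to 7532 counts, at a ratio of 1.45 (1.4 to 1.5). Pgd per G6pdx went from 0.941 in the control to 2.28 in the DAC library, 2.42 times its control value (2.28 to 2.57), and Taldo1 per Tkt was 1.71 times its control value (1.61 to 1.82). Other enzymes of the pathway past the minimum, outside the list, were called neither way and had ratios on both sides of 1. These were 1.53 (1.4 to 1.66) for H6pd, the counterpart of G6pdx in the endoplasmic reticulum, 0.889 (0.829 to 0.954) for Pgls, which follows G6pdx, 0.551 (0.506 to 0.599) for Rpia and 0.640 (0.605 to 0.677) for Rpe, which interconvert the pentose phosphates. Some G6pdx exon sequence, 13.6%, overlaps Ikbkg on the opposite strand, which had 2515 counts without and 2360 with DAC. Me1, cytosolic malic enzyme, went from 2778 to 3319 counts, at a ratio of 1.02 (0.968 to 1.07), and shares 32.8% of its 50-base stretches with other genes.

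The genes beside Pgd and Taldo1 were called neither way, with ratios on both sides of 1. They ran up to 1.83 (1.47 to 2.30) for Rpsa-ps12, 6.6 kb from Pgd, and 1.73 (1.58 to 1.89) for Slc25a22, 26.8 kb from Taldo1. The lowest were Kif1b beside Pgd, given below, and B230206H07Rik beside Taldo1, at 0.793 (0.56 to 1.12). Cenps, a centromere protein gene 12.4 kb from Pgd on chromosome 4, went from 202 counts without DAC to 413 with it (ratio 1.74, 1.47 to 2.07). Kif1b, a kinesin gene 9.55 kb away on the other side, had 6006 and 4999 (ratio 0.709, 0.683 to 0.737). Gatd1, 4.83 kb from Taldo1 on chromosome 7, had 190 counts without and 264 with DAC (ratio 1.18, 0.979 to 1.43). Over the 8 called genes, 2 of 32 nearest expressed neighbours were called higher (Nfat5 beside Nqo1 and Ccdc88b, 48.5 kb from Prdx5) and none lower, no more than the 10.8% and 5.29% of all genes.

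Other enzymes that make or use NADPH went both ways, with 1 of 15 called higher (6.67%, against 10.8% of all genes) and 2 lower (13.3%, against 5.29%). Idh1, the cytosolic isocitrate dehydrogenase, went from 372 counts without DAC to 876 with it, at a CPM ratio of 2.01 (1.78 to 2.27). Me3, a mitochondrial malic enzyme, had 505 counts without and 130 with DAC and was 4.56-fold lower (3.75 to 5.57). Aldh1l2, the mitochondrial enzyme that draws NADPH from folate and the most counted of the list, had 36836 counts without and 11972 with DAC and was 3.61-fold lower (3.54 to 3.69). Other mitochondrial enzymes of the list were called neither way and had ratios on both sides of 1. Above 1 were Nadk2 at 1.69 (1.47 to 1.94), Idh2 at 1.33 (1.26 to 1.4) and Mthfd2 at 1.13 (1.10 to 1.17). Below 1 were Me2 at 0.889 (0.847 to 0.934), Nnt at 0.8035 (0.749 to 0.862) and Mthfd1l at 0.6645 (0.6405 to 0.689).

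Lipid peroxidation genes had 8 past the minimum, with none called higher and 3 lower (37.5%, against 5.29% of all genes). Acsl4, which loads polyunsaturated fatty acids into membrane lipids and favours ferroptosis, went from 6798 counts without DAC to 2027 with it and was 3.94-fold lower (3.74 to 4.14). Ptgs2, cyclooxygenase 2 and a common marker of ferroptosis, was the most counted of the list, with 64154 and 26011 counts, and was 2.89-fold lower (2.85 to 2.94). Gch1, which makes the antioxidant cofactor tetrahydrobiopterin, was the third. The list thus held genes called lower on both the promoting and the protecting side, next to Gpx4 with a ratio of 0.918.

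Genes that produce reactive oxygen had 6 past the minimum, with 1 called lower (16.7%, against 5.29% of all genes) and 3 higher (50%, against 10.8%). All 3 genes called higher passed the minimum through the DAC library alone, so they could be called in 1 direction only. Ncf1, which encodes a cytosolic subunit of the phagocyte NADPH oxidase, had 0 counts without and 40 with DAC. Against the floor of 3 counts it was 11.4-fold higher, with an interval limit of 8.82. The catalytic subunit gene Cybb had 0 counts without and 7 with DAC, below the minimum in both. Against the floor of 3 counts its ratio was 1.99, with an interval limit of 1.23. Noxo1, an organizer subunit of another NADPH oxidase, was also called higher, with 18 and 45 counts. Xdh, xanthine dehydrogenase and the most counted of these, had 18320 counts without and 9555 with DAC and was 2.25-fold lower (2.20 to 2.31). Of 7 leukocyte markers, 2 were in the tables, and their summed level was 1.06 CPM without and 0.452 with DAC, with Ptprc at 3 and 0 counts and Lyz2 at 31 and 17. Their part in the Ncf1 value was not tested. Endothelial markers summed to 0.344 and 0.825 CPM and erythroid markers to 0.156 and 0.240 CPM.

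**Figure D5:**
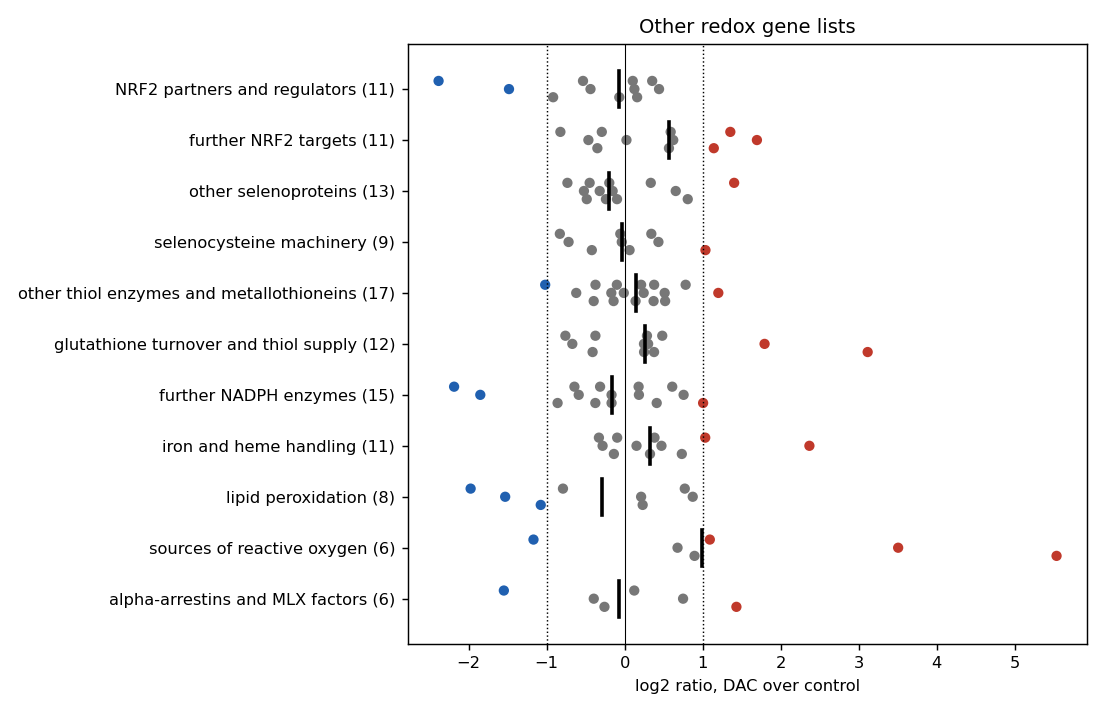
log2 ratio of DAC over control for the genes of 11 further redox lists that passed the minimum, with their number in parentheses, bars at the median, dotted lines at 2-fold, and red and blue for genes called higher and lower. Ncf1 is drawn at its value against the floor of 3 counts. Of 119 genes, 15 were called higher and 10 lower, and the further NRF2 targets have a median of 0.57.

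Across these 11 lists, which held 154 genes, 144 were in the tables and 119 passed the minimum, with 15 called higher (12.6%) and 10 lower (8.4%). With library totals the counts were 17 and 7, and Txndc12, Gch1 and Xdh were no longer called lower. These shares, like those of the 35 listed genes, were close to the 10.8% and 5.29% of all genes.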

How the data were processed

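Poly-A RNA of control and DAC-treated CT26 cells was sequenced on an Illumina HiSeq system after a TruSeq preparation, with 1 library per group. The authors deposited whole-number counts per Ensembl gene without normalization, in 1 table per library. Tools in the submitters' processing notes are STAR 2.5.3a with Trim Galore and FastQC, StringTie 1.3.1c with Cufflinks, and DESeq, on mm10, whereas the study's methods describe CASAVA, TopHat and Bowtie. The route to the counts, the use of strand and the handling of reads with several matches are not given in the sources used here, so genes with near-identical copies or overlapping exons are uncertain.

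From the deposited counts, TMM factors were computed with edgeR 4.0.16 in R 4.3.3 (0.936 in control, 1.07 in DAC), and CPM, ratios and exact intervals with Python 3.11.15, numpy 2.4.6, pandas 2.3.3 and scipy 1.17.1. With 1 library per group, no p-value was computed. A count of 0 was set to 3 counts for a ratio. GENCODE M21 (GRCm38) gave symbols, coordinates and exon lengths for 24122 identifiers, and 101 did not match. Each gene's longest GENCODE transcript was compared, in 50-base stretches, with all transcripts of other genes. Promoter sequences were from RefSeq (GRCm38.p6).

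The listed genes, the 11 further lists, the markers and the rule for named genes were chosen with earlier results of these data known. The rule names all 38 genes, up to 2 genes higher and 2 lower per further list with the interval farthest from 1, its gene with the highest summed CPM, and genes that share 50-base stretches with a listed gene. The last are not all described. A gene named by the rule is not reported here. Genes outside the rule (Ptgr1, Gch1, Noxo1, Cybb, H6pd, Pgls, Rpia, Rpe, Nadk2, Idh2, Mthfd2, Me2, Nnt, Mthfd1l, markers, flanking and overlapping genes) were named after their values were seen. Alternatives were scaling by totals, by upper quartiles or by DESeq2 1.42.0 size factors, centring on 20 bins of GC content, other CPM minimums, thinning, other folds, counts divided by 3 and an added count of 2. Bisulfite sequencing, xenograft tumors and mouse experiments were not analysed here.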

Additional observations from a re-analysis of the deposited data

How the results depend on the processing

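No paired analysis was possible because each group has 1 library and no test was run, and for the same reason no library could be left out. The 5 genes called higher stayed 5 under every scaling, GC centring, CPM minimum, thinning and interval tried. With a fold of 1.5 they were 7, with Sod1 and Prdx4 added (19.3% of all genes higher and 15.2% lower), and with a fold of 4 they were 1 (Nqo1). The 3 called lower were 2 with library totals or DESeq2 size factors, which lost Prdx5, 4 without a CPM minimum, which added Sod3, and 0 with a fold of 4. The list's median log2 ratio of 0.11 was 0.30 with library totals, which added 0.19 to every log2 ratio, and 0.22 with GC centring, while that of the NRF2 targets was 0.54 with library totals. The median of the listed genes outside the NRF2 targets turned from -0.09 to 0.10 with library totals, below the 0.18 of all genes. Calls in the further lists, 15 higher and 10 lower, were 23 higher without a CPM minimum, 9 higher with a minimum of 5 CPM, 28 higher and 22 lower with a fold of 1.5, and 4 higher and 2 lower with a fold of 4. With the longest transcript as length, the Gpx1 share of its family was 8.57% without and 3.81% with DAC. Over all genes, library totals gave 1889 higher and 458 lower calls, against 1468 and 716. Depth limited Gpx7, Sod3 and the control value of Nqo1, and differences between cultures cannot be told apart from those between treatments with 1 library per group.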
